A study of Mus musculus with 17 samples.

Results

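A set of 10 genes of corticosteroid signalling were followed across the left ventricular apex of young adult male C57Bl6/J mice 3 weeks after transverse aortic constriction (TAC) or a Sham operation. They were chosen by gene symbol: Nr3c1, Nr3c2, Hsd11b1, Fkbp5, Tsc22d3, Zbtb16, Sgk1, Klf9, Cebpb and Cebpd, which are 10 of the 21798 genes in the deposited table. All 10 passed the filter on low values (0.5 CPM, counts scaled to a common library total, in at least 3 libraries), as did 16218 genes in all. The 17 bulk RNA-seq libraries came from 4 groups, with 3 TAC Veh, 6 TAC 29P, 5 Sham Veh and 3 Sham 29P libraries. TAC narrows the aortic arch and so loads the left ventricle with pressure. 29P is an RGD mimetic directed at integrin αvβ3 and was given at 50 μg/kg, and Veh is the same volume of saline. All mice shared strain, sex, tissue and time point, and 29P was first given only after surgery, so the TAC 29P group received it on established pressure overload.

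The glucocorticoid receptor (Nr3c1) and the mineralocorticoid receptor (Nr3c2) are steroid-bound transcription factors that share ligands and DNA sites. Inside cells, 11β-hydroxysteroid dehydrogenase type 1 (Hsd11b1) regenerates active glucocorticoid from its inert keto form. The hormone-bound glucocorticoid receptor enters the nucleus and raises a common set of genes in many tissues, among them Fkbp5, Tsc22d3, Zbtb16, Sgk1, Klf9, Cebpb and Cebpd. In heart muscle both receptors are present, and because the muscle cell largely lacks the inactivating enzyme Hsd11b2, its mineralocorticoid receptor is occupied mostly by glucocorticoid.

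Each library's label also carries, before its library number such as S1, another number whose meaning the labels do not give. These numbers fall into 4 separate runs: run 1 held 9 libraries, run 2 held 3, run 3 held 2 and run 4 held 3. Library numbers rise from run to run in blocks, so run cannot be told apart from the order of the libraries. The runs were unevenly spread over the groups. Run 1 held 5 of the 6 TAC 29P libraries but 1 of the 3 TAC Veh and 1 of the 3 Sham 29P libraries, and no TAC 29P library was in run 2 or run 3. The ventricular label was checked against markers. Summed CPM of 8 cardiomyocyte genes ran from 38461 to 58887, and the atrial light chain Myl7 was at or below 1.002 CPM in runs 1 to 3 but at 335 to 895 CPM in all 3 libraries of run 4. Depth, read from the smallest step in the CPM values, was 14.2 M to 23.8 M counts per library. The mitochondrial-encoded share was 29.1% to 40.0% in Sham and 23.6% to 29.4% in TAC libraries. The median over all tested genes was 0.35 log2 units higher in TAC Veh than in Sham Veh, 0.19 with totals that left out mitochondrial-encoded genes and 0.03 after scaling by trimmed mean of M values (TMM). Changes after surgery are therefore given on both scales.

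Per kilobase of exon, averaged over the 17 libraries, Klf9 (31.6 ± 9.20 CPM per kb, SD, n = 17) stood highest, followed by Tsc22d3 (22.1 ± 8.95), Sgk1 (15.9 ± 4.46) and Nr3c1 (13.2 ± 2.40). Cebpb (7.72 ± 3.53) and Zbtb16 (5.91 ± 5.53) came next. Cebpd (3.13 ± 1.73), Fkbp5 (3.10 ± 3.18), Nr3c2 (2.86 ± 0.66) and Hsd11b1 (2.35 ± 0.55) closed the order. Klf9 exceeded Tsc22d3 in 16 of 17 libraries and Tsc22d3 exceeded Sgk1 in 15. The places of Sgk1 and Nr3c1 (10 of 17), of Zbtb16 and Cebpd (10 of 17) and of Fkbp5 and Nr3c2 were not held beyond the spread, since Fkbp5 exceeded Nr3c2 in 4 libraries although its mean was higher.

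A palindromic glucocorticoid response element was looked for in the 250 bases before each annotated start, because several of the responsive genes differed between runs. Promoter entries of the RefSeq annotation (GRCm38.p6) matched 7 of the 10 genes, with 14 starts. The full element, AGAACA and TGTTCT with 3 bases of any kind between them, is its own reverse complement. It lay in 3 of all 32851 promoters (0.00913%), and 1 of them was Sgk1. The looser form, GNACA and TGTNC with the same gap, takes in every full element and lay in 127 promoters (0.387%). Of the 7 genes, Sgk1 alone held it, and Sgk1 was not called between runs (limma F test, adjusted p = 0.408). Fkbp5, Tsc22d3, Klf9 and Cebpb, which were called between runs, did not hold it in these 250 bases, and sequence further away was not searched. Zbtb16, also called between runs, had no promoter entry, nor did Nr3c1 and Cebpd. Map3k6 and Fam107a, the 2 genes most like Fkbp5 across libraries, held it as well, and Ifi207, the third, did not. These neighbours of Fkbp5 were picked from these same data, and the genes most like the other members were not searched. The half-site AGAACA, on either strand and also part of the full element, lay in 16.1% of promoters. The 3 promoters are shown with the element in capitals: Sgk1 at chr10:21993640-21993889 on the plus strand, Map3k6 at chr4:133240568-133240817 on the plus strand and Fam107a at chr14:8309796-8310029 on the minus strand. A match of letters is no evidence that the receptor binds there, and the part of the element in the differences between runs was not tested.
Sgk1: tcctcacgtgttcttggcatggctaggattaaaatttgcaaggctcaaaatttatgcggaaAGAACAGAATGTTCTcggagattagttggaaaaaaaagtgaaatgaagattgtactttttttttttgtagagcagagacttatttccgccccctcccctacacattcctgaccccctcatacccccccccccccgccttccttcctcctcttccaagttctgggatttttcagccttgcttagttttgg
Map3k6: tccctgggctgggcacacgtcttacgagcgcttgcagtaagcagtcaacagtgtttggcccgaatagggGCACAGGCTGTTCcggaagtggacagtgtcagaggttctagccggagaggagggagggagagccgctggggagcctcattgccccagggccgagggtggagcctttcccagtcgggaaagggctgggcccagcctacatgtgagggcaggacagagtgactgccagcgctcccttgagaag
Fam107a: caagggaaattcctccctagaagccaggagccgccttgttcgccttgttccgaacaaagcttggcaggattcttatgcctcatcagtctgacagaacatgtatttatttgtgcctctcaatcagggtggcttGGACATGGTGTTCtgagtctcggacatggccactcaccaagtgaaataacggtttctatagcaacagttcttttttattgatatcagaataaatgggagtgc

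The receptors were examined first. Nr3c1 stood at 99.9, 74.6, 97.2, 68.4 and 69.3 CPM in the Sham Veh libraries S5, S6, S13, S19 and S20, and at 117, 120 and 103 CPM in the TAC Veh libraries S2, S12 and S16, so the 2 groups did not overlap, which held for 29.8% of all tested genes. In Sham 29P it was at 100.2, 115 and 72.4 CPM, and in TAC 29P between 109 and 120 CPM with a median of 113. TAC Veh exceeded Sham Veh by 0.49 ± 0.15 log2 units (SE, limma, adjusted p = 0.0261), close to the median of all genes, and with TMM scaling by 0.16 (adjusted p = 0.521). Under 29P the TAC-minus-Sham difference was 0.27 ± 0.14 (adjusted p = 0.150) and -0.09 with TMM scaling. Relative to the other genes, no change of Nr3c1 was detected.

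Nr3c2 (chromosome 8, 76899442 to 77245013, plus strand) ran from 13.9 to 22.2 CPM in Sham Veh and from 10.8 to 18.8 CPM in TAC Veh. It was at 23.2, 23.3 and 23.99 CPM in Sham 29P and between 12.9998 and 24.9 CPM, with a median of 18.1, in TAC 29P. The Sham 29P libraries lay above every Sham Veh library, as 2.14% of genes lay without overlap, but the difference of 0.42 ± 0.21 log2 units was not called (limma, adjusted p = 0.680). After surgery, averaged over both treatments, Nr3c2 was 0.32 ± 0.15 lower on deposited CPM (adjusted p = 0.0757) and 0.66 lower with TMM scaling (adjusted p = 0.00324). The estimate was negative in both treatments and on both scales. Within runs the TAC mean was below the Sham mean in 3 of 4, and 0.54 log2 units above it in run 4. Permuting surgery labels within runs gave p = 0.453 on deposited CPM and 0.0397 with TMM scaling (exact, two-sided, 1512 arrangements). With a term for run the averaged difference was -0.26 (limma, adjusted p = 0.133).

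Hsd11b1 (chromosome 1, 193221634 to 193264076, minus strand) was lower after TAC on either scale and in each treatment. Sham Veh libraries stood at 9.59, 13.2, 13.02, 11.2 and 13.99 CPM and TAC Veh libraries at 9.88, 8.07 and 8.16 CPM. Sham 29P libraries stood at 11.3, 9.87 and 13.3 CPM, and TAC 29P libraries between 6.28 and 9.97 CPM with a median of 7.76. The values overlapped in 1 TAC Veh library and at the top of TAC 29P. The difference was -0.48 ± 0.17 log2 units in Veh (adjusted p = 0.0483) and -0.51 ± 0.17 under 29P (adjusted p = 0.0281), with limma over all genes. With TMM scaling these were -0.80 (adjusted p = 0.00986) and -0.87 (adjusted p = 0.00708). Within each of the 4 runs the TAC mean was below the Sham mean, by 0.43, 0.49, 0.70 and 0.79 log2 units. Permuting surgery labels within runs gave p = 0.00265 (exact, two-sided, 1512 arrangements). In bulk tissue, fewer cells of a type and less RNA per cell cannot be told apart. The macrophage marker sum ran from 310 to 362 CPM in Sham Veh and from 461.5 to 726 CPM in TAC Veh. Of 8 cardiomyocyte markers, TAC Veh against Sham Veh called 1 lower, with a median of -0.31, where 1.91% of all genes were called lower. With TMM scaling 5 of 8 were called lower, with a median of -0.63, where 9.56% of all genes were called. The part of either cell type in the Hsd11b1 values was not tested. Hsd11b1 shares its locus with Gm38118 on its own strand and with Lamb3 and 4930570N18Rik on the other strand. Whether the counting used strand is not given in the sources used here.

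Other genes of hormone supply were few. H6pd, which feeds NADPH to Hsd11b1, was at 22.6 ± 3.94 CPM in Sham Veh (SD, n = 5) and 30.0 ± 4.18 in TAC Veh (n = 3), a log2 difference of 0.42 (adjusted p = 0.101) that came to 0.10 with TMM scaling. Hsd11b2 did not pass the filter, with 0.25 CPM as its highest value. Star, the cholesterol carrier of steroid synthesis, rose after TAC in Veh by 1.76 ± 0.33 log2 units (adjusted p = 0.00312), and by 1.44 with TMM scaling (adjusted p = 0.00767). Its Sham Veh values were 2.35 to 2.85 CPM and its TAC Veh values 5.48 to 14.8 CPM. Of 5 listed supply genes tested, Star was the 1 called in that comparison, where 24.4% of all genes were called.

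Across all 10 genes, TAC Veh against Sham Veh called 2, Nr3c1 upwards and Hsd11b1 downwards, where 24.4% of all tested genes were called (22.5% higher, 1.91% lower). TAC 29P against Sham 29P called 1, Hsd11b1, where 32.5% were called. With TMM scaling the calls were 1 and 3, where 9.56% and 10.7% were called. Leaving out S6, S19, S2 or S12 left 0 calls in Veh, and leaving out S14, S3 or S9 left 0 under 29P. With a term for run, Hsd11b1 had adjusted p of 0.0928 in Veh, 0.124 under 29P and 0.00541 averaged over both. Averaged over both treatments, 3 of 10 were called, against 52.5% of all genes: Nr3c1 and Cebpd higher and Hsd11b1 lower. The median of the 10 was 0.05 log2 units, against 0.36 over all genes. With TMM scaling the averaged fit also called 3 of 10, all lower (Nr3c2, Hsd11b1 and Klf9), where 27% of genes were called. In that fit 7 of 8 cardiomyocyte markers were also called lower, with a median of -0.58. The part of cardiomyocytes in the 3 genes was not tested.

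**Figure D1:**
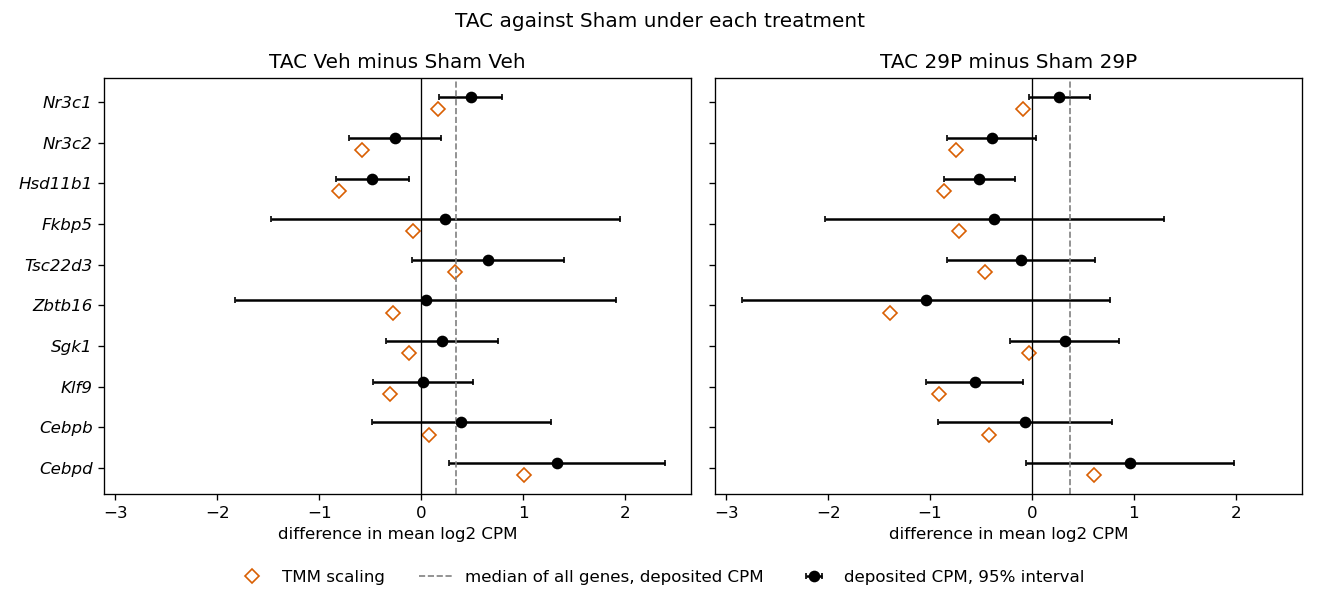
Difference in mean log2 CPM between TAC and Sham for each gene under Veh (left) and 29P (right). Black points are deposited CPM with 95% intervals, open diamonds are TMM-scaled values and the dashed line is the median of all tested genes. Hsd11b1 lies below 0 in both panels on both scales, and most of the responsive genes have intervals that cross 0.

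Cebpd (chromosome 16, 15887286 to 15891032, plus strand), a C/EBP transcription factor raised by glucocorticoid and by inflammatory cytokines, was the responsive gene that differed most with surgery. It stood at 4.68, 6.25, 7.26, 10.2 and 17.7 CPM in Sham Veh and at 19.3, 17.1 and 27.2 CPM in TAC Veh. The highest Sham Veh library, S20 at 17.7 CPM, overlapped with TAC Veh. Sham 29P stood at 6.73, 2.02 and 12.1 CPM, and TAC 29P between 4.71 and 16.7 CPM with a median of 11.5. The averaged surgery difference was 1.15 ± 0.35 log2 units (limma, adjusted p = 0.0119), positive in 4 of 4 runs, and 0.81 with TMM scaling (adjusted p = 0.0753). In Veh alone it was 1.33 ± 0.50 (adjusted p = 0.0594). With a term for run it was 1.45 in Veh (adjusted p = 0.0362) and 1.21 averaged (adjusted p = 0.00292). In TAC Veh against Sham Veh all 8 macrophage markers were called higher, with a median of 0.96, where 22.5% of all genes were. With TMM scaling 2 of 8 were called, with a median of 0.63, where 9.56% of all genes were called. Averaged over both treatments TMM scaling called 7 of 8, where 27% of all genes were called. The part of macrophages in Cebpd was not tested. Spidr overlaps Cebpd on the other strand.

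The other responsive genes were not called in TAC Veh against Sham Veh on deposited CPM. For Fkbp5, Zbtb16, Tsc22d3, Sgk1, Klf9 and Cebpb, TAC Veh against Sham Veh gave log2 differences from 0.02 (Klf9) to 0.66 (Tsc22d3), with adjusted p from 0.170 to 0.975. The 95% interval for Fkbp5 ran from -1.47 to 1.95 and that for Zbtb16 from -1.82 to 1.91, so that changes of that size in either direction stayed within the error. With TMM scaling Fkbp5, Zbtb16, Sgk1 and Klf9 were below 0. Klf9 was called lower on that scale under 29P (-0.91, adjusted p = 0.0261, limma) and averaged over both treatments (-0.61, adjusted p = 0.0174). Tsc22d3 was called higher in the averaged fit with a term for run (0.44, adjusted p = 0.0274). The width came from within the groups, as the values by library show.

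Fkbp5 (chromosome 17, 28399094 to 28517528, minus strand), a co-chaperone that lowers the hormone affinity of the glucocorticoid receptor, stood at 9.38, 9.93, 12.2, 57.1 and 104 CPM in Sham Veh libraries S5, S6, S13, S19 and S20. It was at 8.67, 9.94 and 88.8 CPM in Sham 29P (S4, S14, S15) and at 20.2, 15.9 and 63.9 CPM in TAC Veh (S2, S12, S16). In TAC 29P it lay between 10.5 and 32.7 CPM with a median of 13.3, and S18 was the highest. In every group the high libraries were those of runs 3 and 4. Over the 12 libraries of runs 1 and 2, Fkbp5 averaged 12.7 ± 3.53 CPM (SD), and over the 5 of runs 3 and 4 it averaged 69.2 ± 27.7 CPM. The lowest of the later libraries, at 32.7 CPM, exceeded the highest of the earlier ones, at 20.2 CPM. AC154912.5 and AC154912.3 overlap Fkbp5 on its own strand, and AC154912.1 and Gm22146 on the other.

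Zbtb16 (chromosome 9, 48654297 to 48836223, minus strand), a zinc finger transcription factor, separated in the same way. It was at 15.7, 5.10, 16.7, 51.8 and 88.0 CPM in Sham Veh, at 8.35, 37.5 and 101 CPM in Sham 29P and at 14.3, 21.5 and 41.9 CPM in TAC Veh. In TAC 29P it ran from 6.28 to 64.9 CPM with a median of 14.7. The 5 later libraries stood at 41.9 CPM or more and the 12 earlier ones at 37.5 CPM or less. This grouping of runs was chosen after the values were seen and was not tested. Of all tested genes, 0.382% lay wholly higher in runs 3 and 4 and 0.333% wholly lower. Fkbp5 and Zbtb16 were 2 of 10 here.

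**Figure D2:**
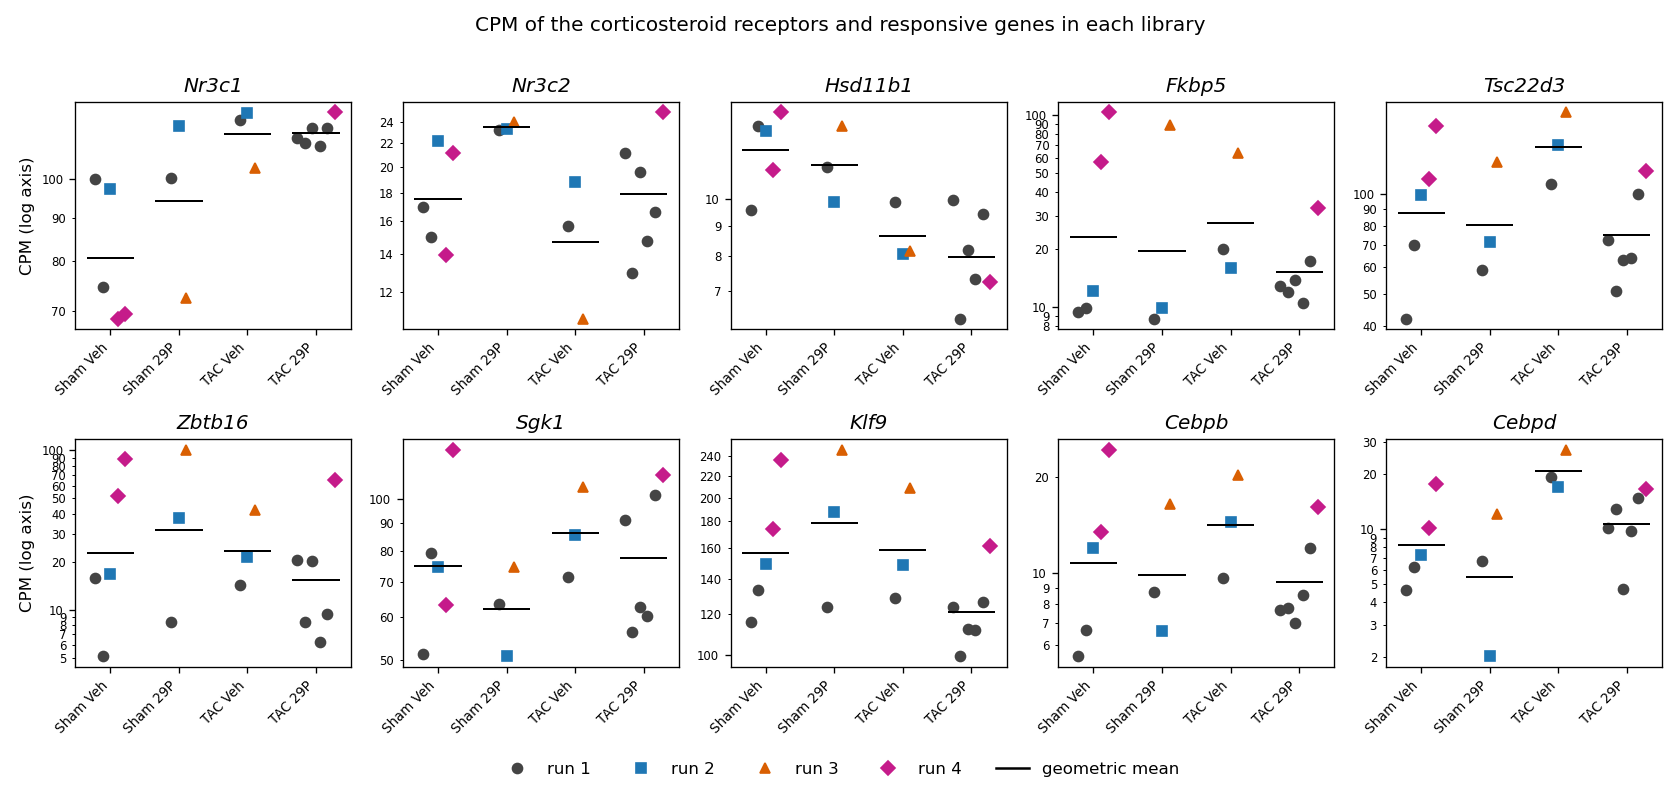
CPM of each gene in each of the 17 libraries on a log axis, by group, with marker shape and colour for the run of label numbers and a bar at the geometric mean. Fkbp5 in runs 3 and 4 stands at 32.7 CPM or more in every group and at 20.2 CPM or less in runs 1 and 2, while Hsd11b1 follows surgery.

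Runs were then fitted as a term beside the 4 group means, a model added after the values were seen. The F test over runs called 5 of the 10 genes at an adjusted p of 0.05, where 3.17% of all tested genes were called. The 10 genes were chosen with earlier results of these data known, so this share is a description and not an independent test. Fkbp5 ranked 26 among 16218 genes (adjusted p = 0.000569), and run 3 exceeded run 1 by 2.52 ± 0.42 log2 units and run 4 by 2.23 ± 0.32. Run 2 differed from run 1 by -0.06 ± 0.34. Zbtb16 (adjusted p = 0.00524) was higher by 1.14 ± 0.47 in run 2, by 2.45 ± 0.58 in run 3 and by 2.79 ± 0.44 in run 4. In each group that had libraries in runs 3 or 4, these libraries were the highest for both genes.

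Klf9 (chromosome 19, 23141226 to 23168135, plus strand), a Krüppel-like transcription factor, was the third gene called (adjusted p = 0.00594). It stood at 116, 133, 149, 174 and 236 CPM in Sham Veh, at 124, 187 and 247 CPM in Sham 29P and at 129, 149 and 208 CPM in TAC Veh. TAC 29P ran from 99.6 to 162 CPM, with S18 of run 4 highest. Run 3 exceeded run 1 by 0.81 ± 0.16 log2 units and run 4 by 0.63 ± 0.12. Run 2 lay between, at 0.33 ± 0.12 above run 1.

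Cebpb (chromosome 2, 167688915 to 167690419, plus strand), a C/EBP factor of metabolic and inflammatory genes, was called as well (adjusted p = 0.0227). Its values were 5.52, 6.67, 12.02, 13.4 and 24.3 CPM in Sham Veh, 8.78, 6.63 and 16.5 CPM in Sham 29P and 9.69, 14.5 and 20.2 CPM in TAC Veh. In TAC 29P they ran from 6.998 to 16.2 CPM. Runs 3 and 4 were 1.14 ± 0.32 and 1.1998 ± 0.25 log2 units above run 1. Tmem189 overlaps Cebpb on the other strand.

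Tsc22d3 (chromosome X, 140539528 to 140600660, minus strand), which encodes the glucocorticoid-induced leucine zipper GILZ, was the fifth (adjusted p = 0.0264). Sham Veh libraries stood at 42.0, 70.3, 98.8, 111 and 160 CPM, Sham 29P at 58.9, 71.5 and 125 CPM and TAC Veh at 107, 140 and 175 CPM. Runs 2, 3 and 4 exceeded run 1 by 0.51 ± 0.23, 0.98 ± 0.28 and 1.01 ± 0.21 log2 units. Earlier and later libraries overlapped. Without S15, S2 or S18 the calls between runs were 3, Fkbp5, Zbtb16 and Klf9, and in all fits that left out 1 library these 3 were called.

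The remaining 5 genes were not called between runs. Cebpd was 0.93 ± 0.50 and 0.92 ± 0.38 log2 units higher in runs 3 and 4 (adjusted p = 0.163). Sgk1 (chromosome 10, 21882184 to 21999904, plus strand), a kinase that sustains sodium transport and the gene with the full element in a promoter, ran from 50.7 to 124 CPM and was 0.46 ± 0.30 and 0.51 ± 0.23 higher (adjusted p = 0.408). Nr3c1 was lower in those runs, by 0.30 ± 0.15 and 0.15 ± 0.11 (adjusted p = 0.202). Nr3c2 (adjusted p = 0.513) and Hsd11b1 (adjusted p = 0.968) showed differences of 0.32 log2 units or less. Run, entered after group, took 81.0% of the sum of squares of Fkbp5, 72.4% of Zbtb16, 64.5% of Cebpb, 57.0% of Klf9 and 50.2% of Tsc22d3, but 1.39% of Hsd11b1.

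Run 4 was also the run with atrial transcripts. Without its 3 libraries, Fkbp5 alone stayed called between runs (adjusted p = 0.00733, limma, 14 libraries), where 0.142% of genes were called. Run 3 then exceeded run 1 by 2.59 log2 units for Fkbp5, 2.48 for Zbtb16, 1.17 for Cebpb, 1.003 for Tsc22d3 and 0.82 for Klf9. Myl7 was at or below 0.41 CPM in both run 3 libraries.

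**Figure D3:**
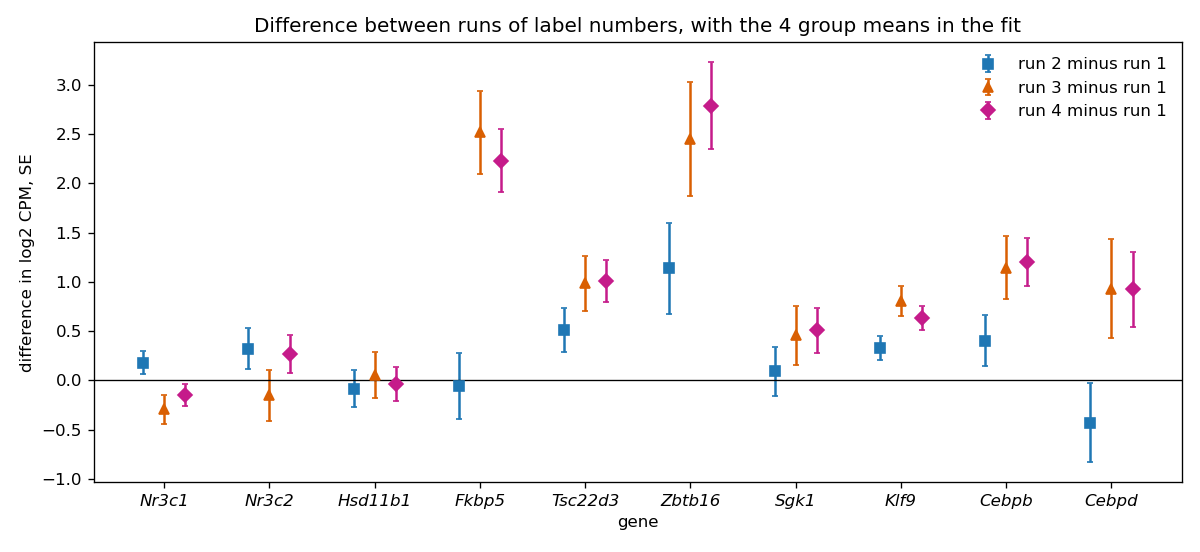
Difference in log2 CPM of runs 2, 3 and 4 from run 1, with SE, for each gene, from a fit that holds the 4 group means. Runs 3 and 4 lie more than 2 log2 units above run 1 for Fkbp5 and Zbtb16 and near 0 for Hsd11b1.

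A wider list of 32 glucocorticoid-responsive genes was read in the same fit. Of 30 tested, 8 were called between runs, against 3.17% of all genes: Map3k6, Fam107a, Errfi1, Ddit4, Nfkbia, Cdkn1a, Pdk4 and Angptl4. These genes are named after their values were seen. The list itself was chosen with earlier results of these data known. Map3k6 and Fam107a were also the genes most like Fkbp5 across these same libraries. The share called is therefore a description and not an independent test of a glucocorticoid pattern across runs. Map3k6, a kinase, averaged 5.61 ± 2.21 CPM in runs 1 and 2 (SD, n = 12) and 25.3 ± 8.44 CPM in runs 3 and 4 (n = 5). Fam107a, an actin-associated stress protein, averaged 2.67 ± 1.05 and 19.6 ± 7.32 CPM. Ddit4, an inhibitor of mTOR, was 1.39 and 1.43 log2 units higher in runs 3 and 4, and Errfi1, an inhibitor of EGF receptor signalling, 1.19 and 1.08. Not all moved this way. Pdk4, which restrains pyruvate oxidation, was 2.01 lower in run 2 and 1.03 lower in run 4 and differed by 0.12 in run 3, and Angptl4 had the same order.

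Of 10 receptor-complex chaperones none was called between runs, although 5 of the 10 had an unadjusted p of 0.05 or less (limma), against 17.1% of all genes. At an adjusted p of 0.05 or less, 3.17% of all tested genes were called between runs. Among 16 clock genes 4 were called: Per2, Cry1, Nr1d2 and Hlf. Per2 was 1.71, 1.79 and 1.65 log2 units above run 1 in runs 2, 3 and 4. Among 14 immediate-early genes Atf3 and Nr4a3 were called, and Nr4a3 was 3.76 and 3.94 log2 units higher in runs 3 and 4. There were also calls among 10 mineralocorticoid-responsive genes (2), 10 coregulators (1) and 21 relatives of the 10 genes (1), but 0 among 5 supply genes. These lists too were chosen with earlier results of these data known, so the shares called are descriptions. The part of the clock and immediate-early genes in the differences between runs was not tested. Collection time and handling are not given for the runs in the sources used here.

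Members were compared with one another through deviations from group means of log2 CPM, over 17 libraries. These points share runs and depth, so the coefficients are descriptions. Among the 7 responsive genes the 21 pairs had Pearson r from 0.40 to 0.93 with a median of 0.79. Tsc22d3 with Cebpb was highest (0.93), and Tsc22d3 with Klf9 followed (0.91). After removal of run means as well, the 21 pairs ranged from -0.34 to 0.84 with a median of 0.53. Cebpb with Cebpd (0.84) and Tsc22d3 with Sgk1 (0.79) then stood high, and Zbtb16 with Cebpb fell to -0.23. Nr3c1 had negative coefficients with all 7 responsive genes, from -0.76 with Fkbp5 to -0.37 with Zbtb16. After removal of run means these were -0.56 with Fkbp5, -0.13 with Sgk1 and 0.18 with Zbtb16.

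**Figure D4:**
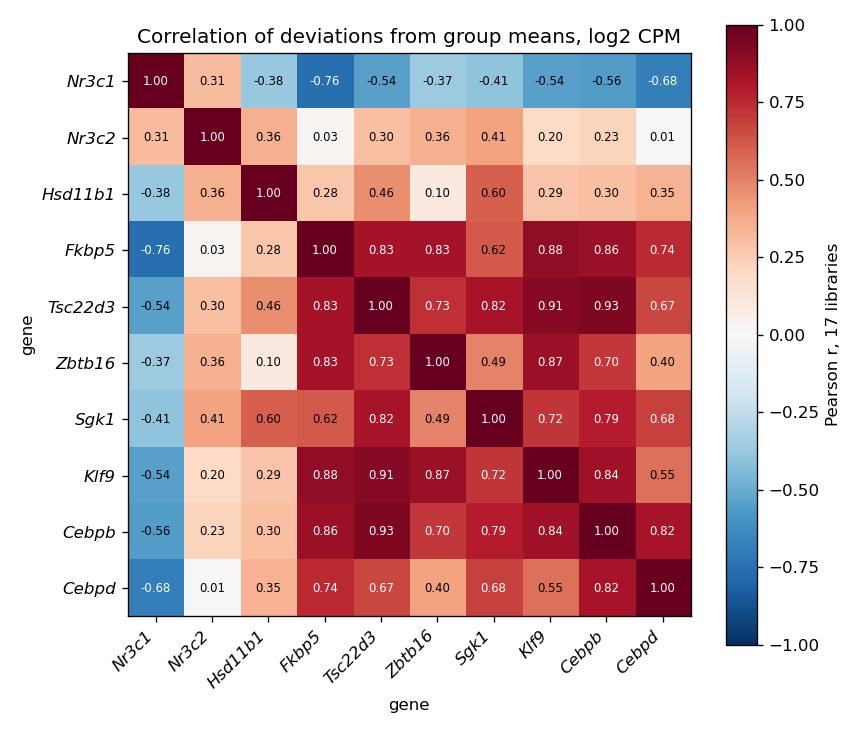
Pearson r between genes, from deviations of log2 CPM from group means over 17 libraries, as a colour scale from -1 to 1. The 7 responsive genes form a block of positive values from 0.40 to 0.93, and Nr3c1 is negative against each of them.

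Among 14053 other genes with a mean of at least 1 CPM, those most like each gene were listed by the same measure. For Fkbp5 they were Map3k6 (r = 0.99), Fam107a (0.97) and Ifi207 (0.96). For Tsc22d3 they were Irf2bp2 (0.94), Cebpb (0.93) and Slc10a6 (0.92), and for Cebpb they were Tsc22d3, Klf3 (0.92) and Pxdc1 (0.92). Zbtb16 was most like Smg1 (0.92), Pde7a (0.91) and Rhobtb1 (0.91). Klf9 had Noct (0.94), Pde7a (0.93) and Lrrc58 (0.93), and Cebpd had Mustn1 (0.90), Ctla2b (0.89) and Cnksr3 (0.89). Sgk1 had Depp1 (0.90), Tob2 (0.86) and Tcim (0.85). For the receptors and the enzyme they were Zfp442, Frmd6 and B3galt2 (0.92 to 0.93) for Nr3c1, Thrb, Cacnb2 and Gm49284 (0.85 to 0.90) for Nr3c2, and Tcap, Depp1 and Sult1a1 (0.73 to 0.78) for Hsd11b1.

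29P against Veh within TAC asked whether treatment shifted these genes in pressure-overloaded hearts. None of the 10 was called (limma, adjusted p of 0.999998 for each), and 0% of all genes were called. At an unadjusted p of 0.05 or less there was 1 of 10, Tsc22d3, where 1.98% of genes passed. Tsc22d3 ran from 51.1 to 117 CPM in TAC 29P with a median of 68.4, against 107, 140 and 175 CPM in TAC Veh. Only S18 of run 4 overlapped. The difference was -0.88 ± 0.34 log2 units (95% interval -1.61 to -0.16, unadjusted p = 0.0199), and -0.55 with a term for run (unadjusted p = 0.0450). Cebpd did not overlap between the groups, which 1.83% of genes did not, and differed by -0.96 ± 0.49 (95% interval -1.98 to 0.06, unadjusted p = 0.0637). With the run term it was -0.95.

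The responsive genes Fkbp5 (-0.84), Zbtb16 (-0.61), Cebpb (-0.59) and Klf9 (-0.39) also had lower means under 29P, with intervals that all included 0. With the run term these became -0.39, 0.12, -0.27 and -0.12. Without run 4 they were -1.06, -1.03, -0.75 (unadjusted p = 0.0351, limma) and -0.47 (unadjusted p = 0.0288), and Tsc22d3 was at -1.01 (unadjusted p = 0.00351) and Cebpd at -1.09 (unadjusted p = 0.0330). Because TAC 29P lay almost wholly in run 1, where these genes were low, 29P and run cannot be fully told apart here. Leaving out run 4 removes S18, the only TAC 29P library outside run 1. In that fit TAC 29P lies wholly in run 1 while TAC Veh spans runs 1 to 3, so its p-values do not separate 29P from run. Within run 1 a single TAC Veh library, S2, can be set beside 5 TAC 29P libraries, with no test. S2 stood at 107 CPM for Tsc22d3 and the 5 at 51.1 to 99.97, at 19.3 CPM for Cebpd against 4.71 to 14.8, and at 20.2 CPM for Fkbp5 against 10.5 to 17.4. For Klf9 it stood at 129 CPM against 99.6 to 126. S2 lay inside the range of the 5 for Zbtb16 (14.3 CPM against 6.28 to 20.3), Cebpb (9.69 against 6.998 to 12.02) and Sgk1 (71.4 against 56.3 to 101.5).

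**Figure D5:**
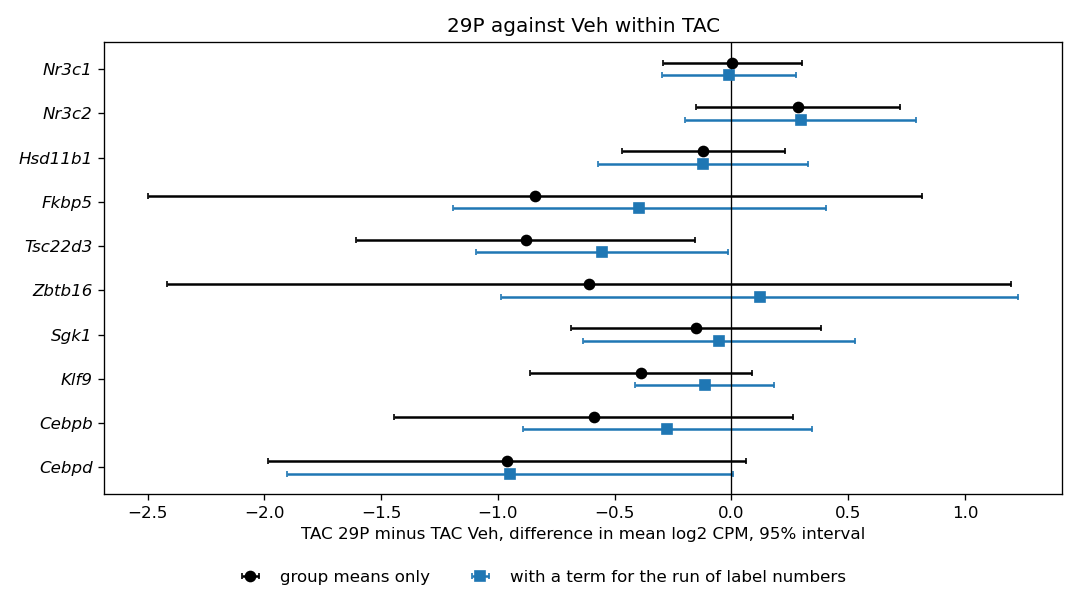
TAC 29P minus TAC Veh as a difference in mean log2 CPM with 95% intervals, from the fit with group means alone (black circles) and with a term for the run of label numbers (blue squares). The Fkbp5 and Zbtb16 intervals narrow with the run term and all but the Tsc22d3 intervals include 0.

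In Sham hearts 29P called none of the 10 (limma), and none had an unadjusted p of 0.05 or less, where 7.49% of genes did. There 0.00617% of all genes were called, which is the single gene 4833412C05Rik. The interaction of surgery and 29P also called none of the 10, with unadjusted p from 0.0924 (Klf9) to 0.888 (Hsd11b1), while 2.84% of genes passed an unadjusted p of 0.05 and again 0.00617% were called. The estimate was negative for 9 of 10 genes, with Sgk1 as the exception. The median was -0.42 over the 10 and 0.04 over all genes. With a term for run, estimates moved towards 0 for Zbtb16 (-0.50), Fkbp5 (-0.22), Klf9 (-0.25), Tsc22d3 (-0.44), Cebpb (-0.19) and Hsd11b1 (-0.01). They moved away from 0 for Nr3c1 (-0.25), Nr3c2 (-0.24), Cebpd (-0.47) and Sgk1 (0.18). The genes share libraries and runs, so their signs are not separate results, and the interaction and run cannot be fully told apart.

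The wider lists after TAC in Veh were read beside the median of all genes, 0.35 log2 units. Medians were 0.01 for the 10 receptor-complex chaperones, of which none was called (limma) and 1 had an unadjusted p of 0.05 or less, 0.27 for coregulators, 0.38 for other responsive genes, 0.20 for mineralocorticoid-responsive genes, 0.43 for relatives, 0.53 for clock genes and 0.72 for immediate-early genes. Among the coregulators, the histone acetyltransferases Ep300 (0.44 log2 units) and Crebbp (0.34) were called higher, and with TMM scaling neither was. Of 30 other responsive genes 3 were called higher, against 22.5% of all genes: Anxa1, an anti-inflammatory annexin (0.99), Mertk, a receptor for engulfment (0.75), and Glul, glutamine synthetase (0.47), none of them with TMM scaling. Of 10 mineralocorticoid-responsive genes Ccn2, a matricellular growth factor, was higher by 2.06 (adjusted p = 0.0319, and 0.0967 with TMM scaling) and Rgs2, a brake on G protein signalling, lower by -0.99 (adjusted p = 0.0172). Rgs2 was also called with TMM scaling (-1.31). Among 21 relatives of the 10 genes 4 were called higher, also against 22.5% of all genes, led by Fkbp10 (0.93), Zbtb7a (0.58) and Cebpg (0.51). Among 16 clock genes 2 were called higher, Bhlhe41 (0.83) and Bhlhe40 (0.80). Egr2 (3.00), Egr3 (2.01) and Fosl2 (0.998) led the 4 of 14 immediate-early genes called higher. With TMM scaling 1 relative was called higher and 1 lower, and 0 of 16 clock genes and 2 of 14 immediate-early genes were called. Of all genes 9.56% were called on that scale.

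Besides Tsc22d3, 5 genes of the pathway lists had an unadjusted p of 0.05 or less for 29P within TAC (limma), all with lower means under 29P, and none was called after adjustment. Of all tested genes 1.98% had such a p. By list there were 1 of 5 supply genes, 1 of 30 other responsive, 1 of 10 mineralocorticoid-responsive, 2 of 16 clock and 1 of 14 immediate-early genes. Per1 was in both the responsive and the clock list. Among 10 chaperones, 10 coregulators and 21 relatives there were 0. The 5 genes were Per1 (-1.42), Ciart (-1.20), Star (-0.80), Adamts1 (-0.71) and Fosl2 (-0.62). With the run term, Star was the 1 of these 5 that kept an unadjusted p under that level (0.0289). All 5 red blood cell markers also had an unadjusted p of 0.05 or less, from -1.05 (Hba-a1) to -1.25 (Alas2). Their summed level was 3082 to 4992 CPM in TAC Veh and 1036 to 4151 CPM, with a median of 1456, in TAC 29P. The part of red blood cells in the differences between TAC 29P and TAC Veh was not tested.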

How the data were processed

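Bulk polyA RNA-seq libraries were analysed, 17 in all. The authors aligned reads with STAR 2.3.7 in Partek Flow to mm10 and deposited CPM per gene with 0.0001 added. The counter and its strand setting are not given in the sources used here. Of low values, 79.2% to 82.2% were whole multiples of a library's step (tolerance 0.02, up to 20 steps), so counts were not recovered and no count model was used. Groups came from the labels. Log2 of the deposited CPM was fitted in limma 3.58.1 (R 4.3.3) with 1 mean per group over all 17 libraries, a trended prior and Benjamini-Hochberg adjustment over 16218 genes with at least 0.5 CPM in at least 3 libraries. Genes were called at an adjusted p of 0.05. No constant was added beyond that of the authors. TMM factors were computed from the filtered CPM.

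Every one of the 10 genes was named in each comparison. In wider lists the 3 called genes with the largest change after TAC in Veh, and those with an unadjusted p of 0.05 or less for 29P within TAC, were named. A result that this rule would name is not reported here. Genes called between runs were named after their values were seen. The 10 genes and the lists were chosen with earlier results of these data known. The fit was tested on simulated data. The labels do not say that libraries of a group came from separate animals, so p-values measure the spread between these libraries. Further libraries that the authors removed were not analysed here. According to the paper, a Sham 29P and a TAC Veh library were dropped for few reads. A further TAC Veh library was dropped because it clustered with Sham mice. The TAC Veh group was thus selected in part on its difference from Sham. This bears on each TAC Veh against Sham Veh difference and p-value given, and its size was not tested. Gene positions are those of the deposited table (mm10). Symbols occurring once in the vM21 annotation numbered 21250, and 21121 had the same start. Alternatives were other scalings, constants, filters, samples in the fit, the run of label numbers as a covariate, robust moderation, exact permutation and leaving out each library.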

Additional observations from a re-analysis of the deposited data

How the results depend on the processing

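No paired analysis was possible because the library numbers in the labels are unique to each library, so no number recurs across groups for a block. Of the 10 genes, TAC Veh against Sham Veh called 2 on deposited CPM. That count was 1 with TMM factors, with median-of-ratios factors, with totals without mitochondrial-encoded genes, with no filter, with only the groups compared and by exact permutation. For TAC 29P against Sham 29P the count of 1 became 3 with TMM factors and with median-of-ratios factors, 2 with totals without mitochondrial-encoded genes, at an unadjusted p of 0.05, by exact permutation and without run 4, and 0 after adding a run covariate. For 29P within TAC the count of 0 became 1 at an unadjusted p of 0.05 and 2 by exact permutation (Tsc22d3 and Cebpd, smallest p allowed 0.0119), and for 29P in Sham 1 by exact permutation (Nr3c2). The count of 5 between runs was 1 without run 4, and it lay between 3 and 5 when 1 library was left out. Leaving out 1 library gave 0 to 2 calls for TAC Veh against Sham Veh and 0 to 2 for TAC 29P against Sham 29P. The TAC Veh count was 0 without S6, S19, S2 or S12, and the other was 0 without S14, S3 or S9.

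Signs reversed for small differences. In TAC Veh against Sham Veh, log2 differences with TMM and with median-of-ratios factors were -0.082 and -0.077 for Fkbp5, -0.28 and -0.27 for Zbtb16, -0.12 and -0.11 for Sgk1 and -0.30 and -0.30 for Klf9. With totals without mitochondrial-encoded genes Zbtb16 was -0.11 and Klf9 -0.14, and a run covariate gave -0.042 for Klf9. In TAC 29P against Sham 29P the 2 scalings gave -0.085 and -0.080 for Nr3c1 and -0.032 and -0.028 for Sgk1, and the run covariate gave 0.079 for Fkbp5, 0.22 for Tsc22d3 and 0.25 for Cebpb. Within TAC, Nr3c1 was -0.0097 with the run covariate and -0.012 without run 4, and Zbtb16 was 0.12 with the run covariate. Leaving out 1 library moved Fkbp5 from -0.37 to 0.78, Zbtb16 from -0.50 to 0.53 and Klf9 from -0.18 to 0.17 in TAC Veh against Sham Veh. In TAC 29P against Sham 29P it moved Fkbp5 from -0.96 to 0.72, Tsc22d3 from -0.33 to 0.21 and Cebpb from -0.35 to 0.30, each turning positive without S15, the Sham 29P library of run 3. Within TAC it moved Nr3c1 from -0.063 to 0.045. Hsd11b1 was negative after surgery and Cebpd positive in both treatments under every alternative run, though neither was called in all of them: adjusted p for Hsd11b1 in Veh ran from 0.00986 to 0.129. The cause was not tested.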
